A study of Nothobranchius furzeri with 68 samples.

Results

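The mitochondrial ribosomal protein genes of the turquoise killifish (Nothobranchius furzeri) were taken as all genes of the deposited liver and muscle tables whose name begins with mrpl or mrps followed by a digit. The rule found 74 genes, 46 named for the large subunit (mrpl) and 28 for the small subunit (mrps), among 25065 genes in the liver table and 25099 in the muscle table. All 74 passed the filter on low counts in liver and in muscle. Polyadenylated RNA was sequenced from 41 livers and 27 muscles of 41 fish, and every muscle came from a fish whose liver was also sequenced. Fish were wild type (WT) or heterozygous for aprt (Het), the gene of adenine phosphoribosyltransferase, which salvages adenine to AMP. They were 6.5 weeks (young) or 15 weeks (old) of age. Livers of fed and 24 h fasted males of both genotypes and ages and of fasted females of both genotypes and ages gave 12 groups, and muscles of fasted fish of both sexes gave 8 groups. Each group held 3 or 4 fish. No female was fed and no muscle came from a fed fish. The labels do not describe the aprt allele, and nothing in them says whether siblings or tanks were shared.

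Mitochondria carry their own ribosome, which makes the few respiratory chain subunits that mitochondrial DNA encodes. Its RNA is mitochondrial, whereas its proteins are encoded in the nucleus, made in the cytosol and imported, so that both genomes must supply parts of one particle. The small subunit reads the messenger RNA and the large subunit forms the peptide bond. Many of its proteins descend from bacterial ribosomal proteins and others are found only in mitochondria; of the 74 genes, 45 fall in the first class and 29 in the second by their human counterparts. Gene names do not always give the place of the protein. In human structures MRPS30 and MRPS18A lie in the large subunit, and MRPS36 belongs to the 2-oxoglutarate dehydrogenase complex. Counts and colours by subunit below go by gene name, with these genes kept under mrps.

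Total counts per library were 19949104 to 31600126 in liver and 24144462 to 31331150 in muscle. The 74 genes together took 0.047 to 0.191% of the counts of a liver and 0.0694 to 0.187% of those of a muscle. Levels are given as CPM, read counts scaled to the TMM-adjusted size of the library. Within liver the mean over all libraries ran from 2.15 CPM for mrpl53 to 36.1 CPM for mrps15, with a median gene at 10.7 CPM. In muscle it ran from 1.38 CPM for mrpl53 to 50.2 CPM for mrps23, with a median gene at 13.9 CPM. CPM is not corrected for transcript length, so levels of different genes are not compared. For the targeted gene aprt every Het group had a lower mean than the WT group of its sex, age and feeding, for example 12.3 ± 0.860 CPM (SD, n = 4) against 23.0 ± 3.23 CPM (SD, n = 3) in old fed livers. One old Het female, fish 21, had aprt in the WT range in both tissues, at 11.9 CPM in liver and 10.1 CPM in muscle. Without fish 21 the genotype comparisons of fasted livers and of muscles still called none of the 74 genes, sex in old livers called 19 instead of 20, sex in muscle none instead of 1, and age in fasted female livers 3 as with it. Of 12 hepatocyte markers 8 were in the tables, and they summed to 25020 CPM or more in every liver and to at most 1786 CPM in any muscle. In bulk tissue a lower share of the cells that express a gene and less RNA per cell cannot be told apart. Some genes of the fasted liver of old WT male fish 18 were at levels of fed fish. Over the 74 genes this liver lay above its group mean for 40, with a median deviation of 0.069 (log2). In fish 19 and 20 of its group the median deviation was -0.094 and 0.065. Groups of 3 were not tested for single fish lying apart.

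**Figure D1:**
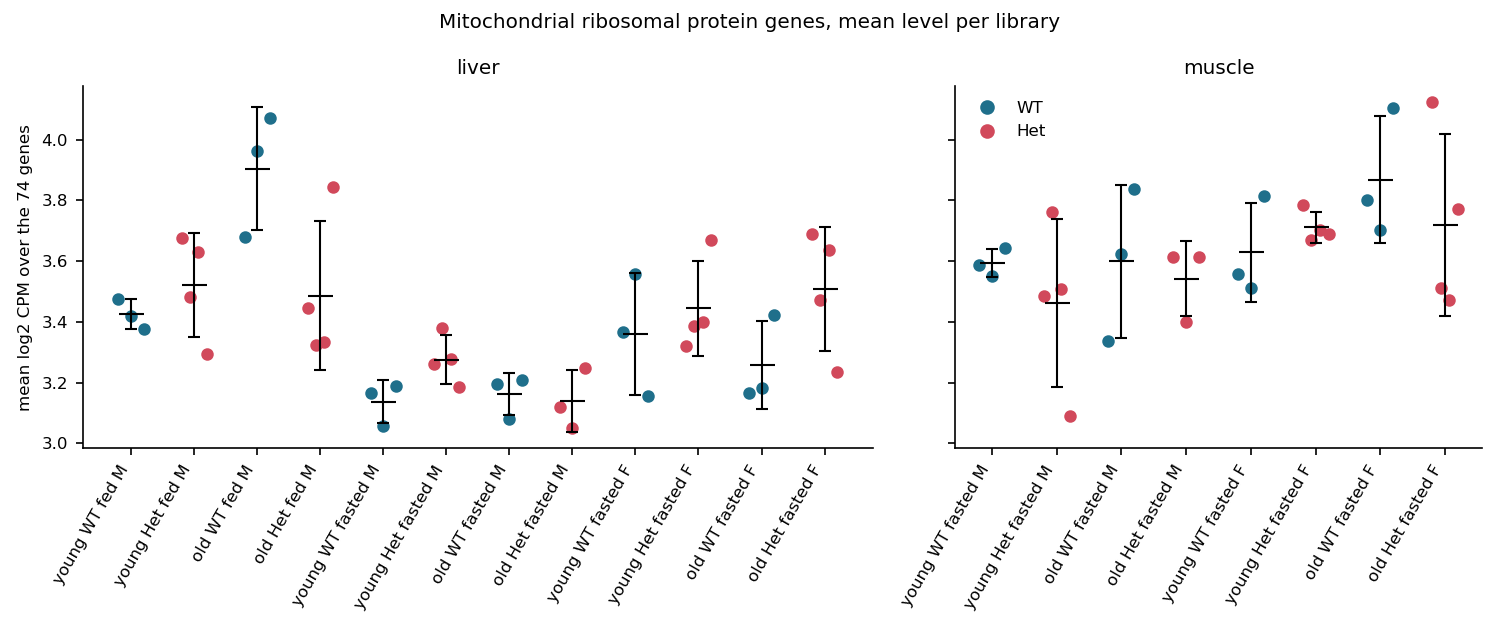
Mean log2 CPM (y axis) over the 74 genes in each liver and muscle library, by group; points are fish, black bars the group mean and SD, blue WT and red Het. The 3 old WT fed livers averaged 3.90, the other fed groups 3.42 to 3.52 and the fasted male livers 3.14 to 3.28.

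The first comparison asked how the genes of the mitochondrial ribosome differed between fasted and fed male livers. Most were lower after the fast. Averaged over the 4 strata of age and genotype, 47 of the 74 were lower and 6 higher at an adjusted p under 0.05 (edgeR's quasi-likelihood test, Benjamini-Hochberg adjustment over 17406 genes), where 47.6% of all genes tested were called, 23.6% lower and 24.0% higher. The median difference of the 74 genes was -0.40 on the log2 scale. The median over all genes lay within 0.08 of 0 in every comparison. By gene name, the lower genes held 30 of 46 large subunit genes and 17 of 28 small subunit genes. They held 25 of the 45 genes with a bacterial counterpart and 22 of the 29 without one. All 6 higher genes, mrps11, mrpl10, mrps9, mrpl30, mrps28 and mrps2, belong to the class with a bacterial counterpart.

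The largest fall was that of mrps21, a small subunit protein of a bacterial family. In young WT males it was at 12.4, 10.7 and 10.1 CPM in the fed fish and at 4.58, 2.88 and 4.55 CPM in the fasted fish. In young Het males the fed fish had 18.8, 11.6, 14.8 and 10.9 CPM and the fasted fish 5.96, 5.78, 5.58 and 5.35 CPM. These groups did not overlap. In old WT males the fed fish had 23.5, 29.8 and 26.6 CPM and the fasted fish 15.8, 3.36 and 3.90 CPM. In old Het males the values were 13.5, 12.5, 17.9 and 23.4 CPM fed and 2.49, 5.21 and 5.18 CPM fasted. Here too every fasted fish lay below every fed fish of its stratum, although fasted WT fish 18 was at the level of young fed fish. The mean log2 difference of mrps21 over the 4 strata was -1.63 ± 0.18 (SE; edgeR adjusted p = 9.98e-09).

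For mrpl54, a mitochondrion-specific protein of the large subunit, young WT males had 9.53, 9.24 and 9.53 CPM fed and 3.73, 3.09 and 4.39 CPM fasted. Young Het males had 15.7, 9.53, 11.8 and 10.6 CPM fed and 5.39, 6.14, 5.79 and 4.88 CPM fasted. The fed fish were the higher ones in both strata. Old WT males had 19.8, 22.3 and 21.4 CPM fed and 7.49, 3.58 and 3.27 CPM fasted. Old Het males had 8.95, 8.80, 11.5 and 18.1 CPM fed and 3.00, 4.30 and 4.23 CPM fasted. The lowest fed liver of any stratum thus lay above the highest fasted one. Its mean log2 difference was -1.55 ± 0.15 (SE; edgeR adjusted p = 1.92e-09). The reference annotation places mrpl54 on a span shared with malt2, which was at 1.01 CPM on average in liver and differed by 0.33 (log2) with an adjusted p of 0.798 in edgeR's test.

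The third, mrpl46, is a large subunit protein of the central protuberance in human structures. Its fed and fasted values in young males were 3.76, 4.30 and 4.43 against 2.02, 1.85 and 1.75 CPM in WT and 7.34, 5.28, 5.67 and 4.92 against 2.81, 2.81, 2.29 and 1.51 CPM in Het. In old males they were 7.50, 9.34 and 9.55 against 3.72, 2.33 and 2.06 CPM in WT and 6.47, 4.23, 5.45 and 9.34 against 1.75, 2.49 and 2.69 CPM in Het. No fasted liver reached the lowest fed one. The mean log2 difference was -1.40 ± 0.14 (SE; edgeR adjusted p = 1.32e-09). Separation over all strata pooled, 13 fasted against 14 fed livers, held for 4 of the 74 genes, mrpl13, mrpl46, mrpl54 and mrps12, all lower, where 1.21% of all genes tested were lower in this way.

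The genes that rose were fewer. The gene mrpl10 encodes the protein that in bacteria anchors the stalk on which elongation factors act. It was at 18.7, 18.9 and 16.1 CPM in fed and 26.1, 27.1 and 30.2 CPM in fasted young WT males, and at 17.3, 20.6, 19.1 and 16.2 against 27.0, 28.4, 23.9 and 25.9 CPM in young Het males. In old males it was at 12.2, 13.1 and 15.9 against 18.5, 24.9 and 24.3 CPM in WT and at 17.5, 15.5, 14.7 and 16.6 against 27.7, 27.5 and 28.7 CPM in Het. Each fasted group lay wholly above its fed group. The mean log2 difference was 0.67 ± 0.06 (SE; edgeR adjusted p = 3.05e-10). Among the 74 genes mrpl10 also had the smallest spread between livers of 1 group, a pooled SD of 0.138 on the log2 scale, where the median gene had 0.271 and mrps25 the most, 0.573.

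The small subunit gene mrps11, whose bacterial counterpart lies near the exit of the messenger RNA channel, rose by 0.71 ± 0.11 (SE; edgeR adjusted p = 4.75e-06). Young males had 26.4, 24.6 and 22.1 CPM fed and 40.0, 34.4 and 35.9 CPM fasted in WT, and 19.7, 27.3, 28.7 and 22.1 CPM fed and 34.6, 40.2, 36.4 and 48.7 CPM fasted in Het. Old males had 13.2, 15.3 and 21.1 CPM fed and 15.9, 43.2 and 37.6 CPM fasted in WT, and 25.9, 26.3, 18.0 and 16.9 CPM fed and 34.1, 27.0 and 35.1 CPM fasted in Het. The groups overlapped in old WT males only, where fish 18 had 15.9 CPM. The gene mrps9, for a small subunit protein of the head, rose by 0.63 ± 0.13 (SE; edgeR adjusted p = 0.000194), from 6.99 to 11.3 CPM over the fed males to 5.67 to 20.6 CPM over the fasted males, the lowest value again that of fish 18. Without fish 18 the number of genes called over the 4 strata was 55.

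**Figure D2:**
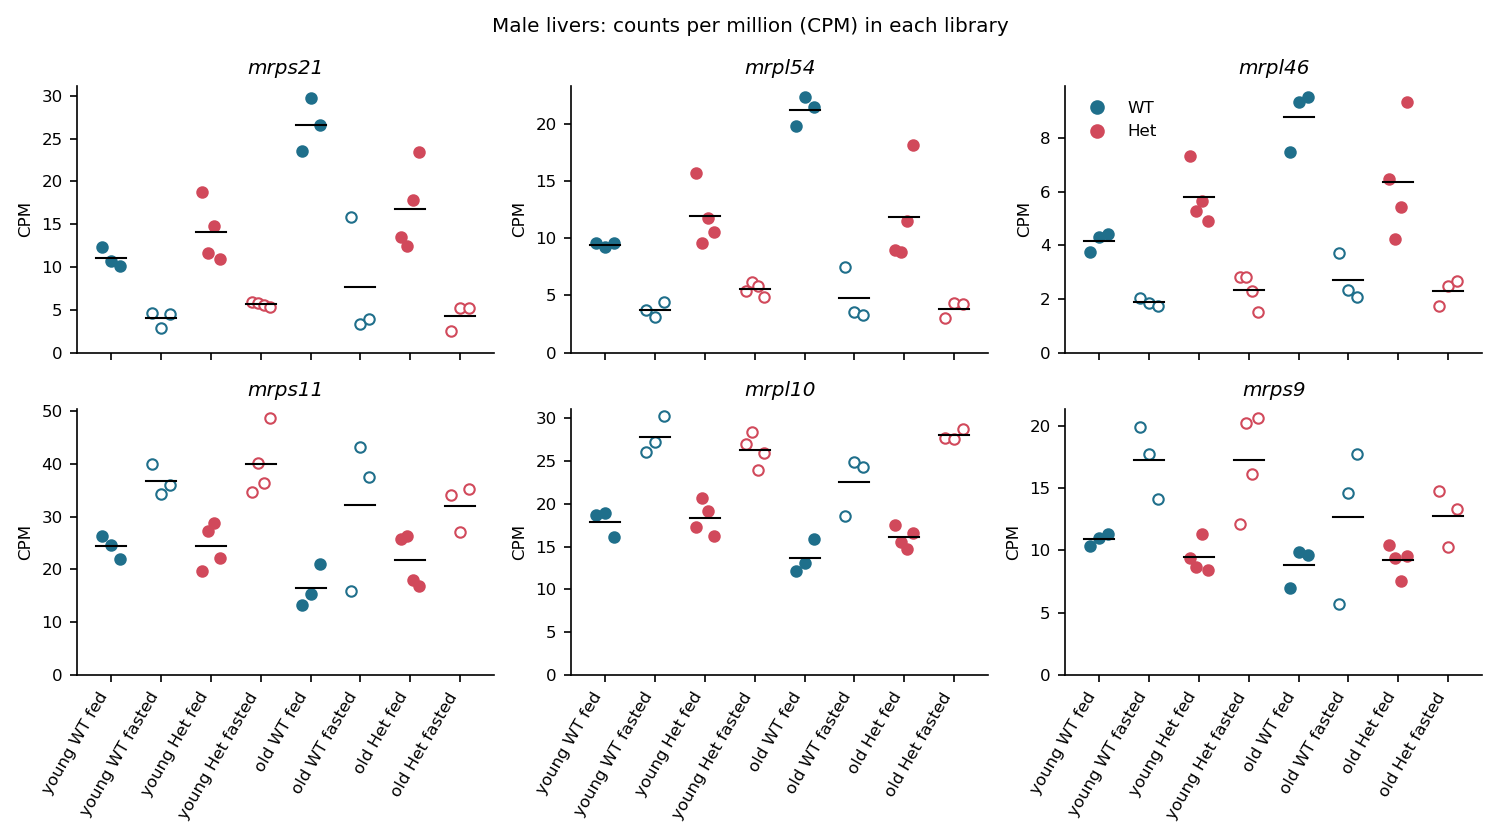
CPM (y axis, from 0) in each male liver of the 3 genes with the largest fall (mrps21, mrpl54, mrpl46) and the 3 with the largest rise after the fast (mrps11, mrpl10, mrps9); filled points fed, open points fasted, blue WT, red Het, black lines group means. The open point at 15.8 CPM for mrps21 is fish 18.

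Of the 74 genes 72 were found in the reference annotation. Among these, mrps11 and mrpl46 are the only 2 that neighbour each other, and after the fast they moved in opposite directions. The spans of 11 of the 72 overlap that of a gene outside the family there. The counts of these 11 and of the genes they overlap may therefore share reads. Whether reads were counted by strand is not given in the sources used here. Among the 11 are mrps18b with abcf1, mrpl33 with rbks, mrpl45 with npepps, and mrpl12 and mrpl57, each with an unnamed gene. After the fast rbks, abcf1 and npepps differed by -0.37, -0.53 and 0.11 (log2, edgeR adjusted p = 0.00366, 2.69e-05 and 0.219). Their partners mrpl33, mrps18b and mrpl45 differed by -0.38, 0.07 and -0.30. The part of shared reads was not tested.

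Members known for particular roles gave values on both sides of the test. The decoding centre protein gene mrps12 fell by 1.01 on the log2 scale (SE 0.108; edgeR adjusted p = 5.61e-09), from 4.99 to 12.8 CPM over fed males to 3.01 to 4.96 CPM over fasted males. The gene mrpl12, for the stalk protein that in human cells has also been reported to bind mitochondrial RNA polymerase, fell by 0.54 (SE 0.105; adjusted p = 6.91e-05). The gene mrps36, for the dehydrogenase subunit, fell by 0.72 (SE 0.0679; adjusted p = 6.82e-10). The genes mrpl33 and mrpl55 fell by 0.38 (SE 0.0925; adjusted p = 0.000916) and 0.41 (SE 0.13; adjusted p = 0.00896), and mrps5, whose bacterial counterpart lines the entry of messenger RNA, fell by 0.28 (SE 0.081; adjusted p = 0.00531). The gene mrpl1 differed by -0.02 (SE 0.0871; adjusted p = 0.874), at 12.5 CPM on average in fasted and 12.7 CPM in fed males.

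The 4 strata share no library, but they were fitted together and share the estimate of the spread. In young WT males 9 genes were lower and 1 higher, where 10.7% of all genes were called, 4.14% lower and 6.51% higher. In young Het males 13 were lower and 5 higher, where 13.5% were called, 7.12% lower and 6.39% higher. Old males had more calls among all genes too. In old WT males 45 were lower and 2 higher, where 28.9% of all genes were called, 15.6% lower and 13.3% higher. In old Het males 25 were lower and 3 higher, where 31.8% were called, 16.3% lower and 15.4% higher. The median log2 difference of the 74 genes was -0.23, -0.25, -0.71 and -0.31 in this order. Every fasted liver lay below every fed liver for 33, 21, 47 and 26 of the genes in the same order, and above for 9, 5, 1 and 5. Among all genes 16.1%, 11.8%, 19.8% and 19.0% were wholly lower and 16.6%, 10.8%, 15.3% and 19.1% wholly higher. When the old WT stratum was fitted with its own 2 groups alone, 14 of the 74 were called. The young WT stratum fitted in this way gave 19. For both fits the share of all genes called was not counted.

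The genes called lower in all 4 strata numbered 7, namely mrpl22, mrpl46, mrpl53, mrpl54, mrps21, mrps31 and mrps36, and mrpl10 was higher in all 4. Among all genes tested 217, or 1.25%, were lower in all 4 and 213, or 1.22%, higher in all 4. In at least 1 stratum 45 of the 74 were called lower and 7 higher, where 25.0% and 24.3% of all genes were, mrpl20 among the latter with 0.69 (log2; SE 0.248; edgeR adjusted p = 0.0321) in old Het males, a call that held in 1 of 7 fits with 1 fish left out. None was called in opposite directions (0.546% of all genes were), and 22 were called in no stratum, as were 51.2% of all genes. A negative difference in all 4 strata was seen for 48 genes, and this was not counted over all genes. Of the calls named here, those of mrps21 and mrpl54 in young WT males ended when fasted fish 32 was left out (edgeR adjusted p = 0.076 and 0.0502), and without that fish 5 genes were called in young WT males.

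**Figure D3:**
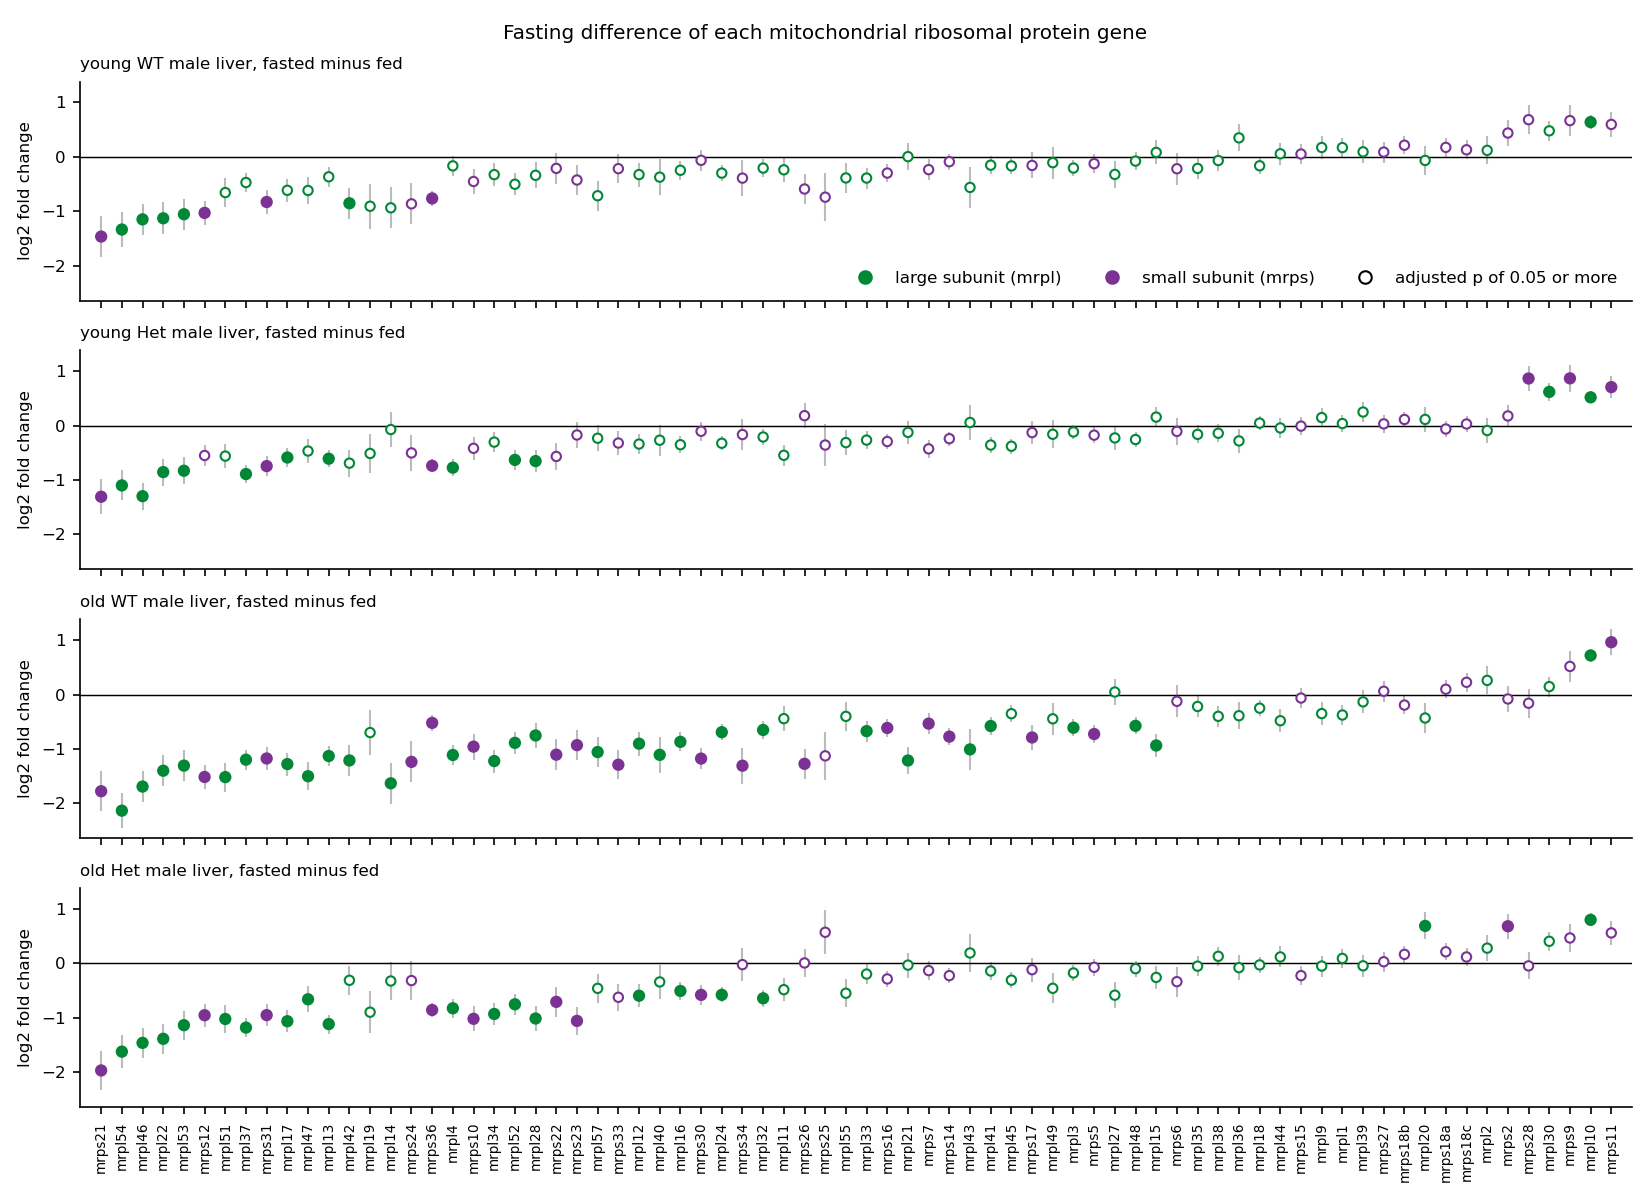
Log2 fold change, fasted minus fed (y axis), of each of the 74 genes (x axis, ordered by the mean over strata) in the 4 strata of male livers; bars are SE, green large and purple small subunit genes, filled points an adjusted p under 0.05. On the left mrps21, mrpl54 and mrpl46 passed the test in every panel, as did mrpl10 on the right.

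Markers of other cells and of hepatocytes moved with the fast in some strata. The summed hepatocyte markers were 85620 to 119400 CPM in fed and 47890 to 72260 CPM in fasted old Het livers, and 109100 to 133200 against 51560 to 102700 CPM in young Het livers. In WT livers fed and fasted ranges overlapped at both ages. Summed leukocyte markers (7 of 9 found) were 9.93 to 14.9 CPM in fed and 19.3 to 45.7 CPM in fasted young Het livers, and reached 341 CPM in a fed and 478 CPM in a fasted old WT liver. Summed exocrine pancreas markers (2 of 9 found) were 71.6 to 1846 CPM in fed and 46.8 to 2380 CPM in fasted male livers. Skeletal muscle markers were 723 to 1815 CPM in fed and 470.5 to 2097 CPM in fasted male livers. The part of these markers in the result was not tested.

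Other genes of mitochondrial gene expression were counted with the fast in lists chosen by function, to be read against the 23.6% of all genes called lower and 24.0% called higher. Of 17 translation factors tested 10 fell and 2 rose; the release factor gene mtrf1 fell by 1.41, the initiator tRNA formylase gene mtfmt by 1.15 and the recycling factor gene gfm2 by 1.06 (log2; edgeR adjusted p = 9.39e-09, 4.82e-08 and 8.92e-06). The insertase gene oxa1l and the translational activator gene taco1 rose by 0.57 and 0.41 (adjusted p = 2.1e-05 and 0.00139). Of 19 genes that charge mitochondrial tRNAs 11 fell and 2 rose, with pars2 at -1.21 and qrsl1, a subunit of the enzyme that amidates mischarged glutamine tRNA, at 1.46 (adjusted p = 6.58e-07 and 5.69e-10). Of 22 assembly factor genes 7 fell and 4 rose, with fastkd2 at -1.09 and malsu1, whose human product keeps the large subunit from joining too early, at 0.77 (adjusted p = 4.27e-07 and 5.66e-07). The list also held 5 genes whose names lie outside the rule but whose human products are proteins of the ribosome itself, aurkaip1, chchd1, dap3, gadd45gip1 and ptcd3. Of these aurkaip1 and gadd45gip1 fell by 0.62 and 0.34 and chchd1 rose by 0.27 (adjusted p = 8.54e-06, 3.83e-05 and 0.0126), while dap3 differed by 0.20 and ptcd3 by -0.10 (adjusted p = 0.123 and 0.43).

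Of 11 genes of mitochondrial DNA upkeep and transcription 8 fell and none rose; the DNA-binding protein gene ssbp1 fell by 1.46 and the elongation factor gene tefm by 0.99 (log2; edgeR adjusted p = 5.01e-06 and 7.8e-08). Of 11 regulators of mitochondrial biogenesis 3 rose and 2 fell. The coactivator gene ppargc1a rose by 1.54, yy1a by 0.68 and esrra by 0.34 (adjusted p = 6.01e-05, 1.61e-08 and 0.0458), while myc fell by 0.61 and gabpb2 by 0.50 (adjusted p = 0.00194 and 2.01e-06). Of 83 nuclear genes of oxidative phosphorylation 48 fell and 3 rose, with a median of -0.29. Of 77 cytosolic ribosomal protein genes 1 fell and none rose, with a median of 0.01.

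Whether the fasting difference itself changed with age or genotype was tested in the same fit. Between old and young males it differed for 1 of the 74 genes, where 1.01% of all genes were called, 0.764% lower and 0.241% higher. That gene was mrps30, at -0.79 ± 0.19 (SE; edgeR adjusted p = 0.0314). Fed young males had 13.7, 14.3 and 12.3 CPM of it in WT and 15.2, 15.4, 18.9 and 13.7 CPM in Het, and fasted young males 14.3, 12.2 and 12.0 CPM in WT and 16.7, 15.9, 15.6 and 10.7 CPM in Het. Fed old males had 19.5, 23.2 and 23.1 CPM in WT and 14.7, 15.3, 14.0 and 20.6 CPM in Het, and fasted old males 11.7, 7.66 and 9.66 CPM in WT and 9.91, 9.16 and 13.4 CPM in Het. Fed and fasted fish overlapped at the young age and did not at the old age. The call of mrps30 held in 14 of 27 fits that left out 1 fish. The number of the 74 genes called changed in 18 of those fits, from 0 without old WT fed fish 5, among others, to 6 without fish 18. The median difference over the 74 genes was -0.27, and 63 of them were negative, a sign count not made over all genes.

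Between Het and WT the fasting difference was called for mrps26, a mitochondrion-specific small subunit gene, at 1.03 ± 0.26 (SE; edgeR adjusted p = 0.0182), where 4.4% of all genes were called, 2.1% higher and 2.3% lower. WT males had 11.7, 11.9 and 12.1 CPM fed and 6.19, 7.89 and 9.58 CPM fasted when young, and 13.2, 19.0 and 16.8 CPM fed and 9.25, 4.23 and 6.66 CPM fasted when old. Het males had 8.78, 7.17, 7.14 and 5.19 CPM fed and 9.36, 8.16, 9.29 and 5.27 CPM fasted when young, and 5.91, 6.38, 7.97 and 9.76 CPM fed and 6.98, 7.91 and 7.78 CPM fasted when old. The WT fish fell and the Het fish overlapped. The call ended without old WT fed fish 5 (adjusted p = 0.0514), while 4 genes were called without fish 18 and 2 without fish 14, 41 or 52. In old males alone no gene was called for this difference (1.25% of all genes called); 19 of the 74 had an unadjusted p under 0.05, DESeq2 called 3, and the smallest adjusted p was 0.061, for mrpl21. Without fish 18, 14 or 4 edgeR called 8, 4 or 1. The counts of unadjusted p-values and of these other fits were made for the 74 genes alone.

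The next comparison was that of old with young fed males. In WT livers 23 of the 74 genes were higher and none lower with age, where 9.43% of all genes were called, 6.13% higher and 3.3% lower. The median of the 74 was 0.49 on the log2 scale. The called genes were 15 of the large and 8 of the small subunit. The gene mrps21 was at 23.5 to 29.8 CPM in the 3 old and 10.1 to 12.4 CPM in the 3 young fed WT livers, a difference of 1.27 ± 0.37 (SE; edgeR adjusted p = 0.0257). The genes mrpl54 and mrpl46 differed by 1.17 ± 0.32 (adjusted p = 0.0176) and 1.08 ± 0.28 (adjusted p = 0.0137). These 3 are also the genes with the largest fall after the fast in the old WT males, a comparison that uses the same old fed livers. The genes mrps5 and mrps12 were higher by 0.57 ± 0.17 (adjusted p = 0.0308) and 0.71 ± 0.22 (adjusted p = 0.0389).

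Groups did not overlap for 58 genes, 54 of them higher and 4 lower in the old WT fed livers, where 20.9% of all genes were wholly higher and 17.6% wholly lower. The number of calls rested on each library. It was 19 without old fish 4, 6 without fish 5 and 11 without fish 6, and 9, 3 and 6 without young fish 45, 46 and 47. Of 6 such fits the call of mrpl46 held in 4, those of mrps21, mrpl54 and mrps12 in 2 and that of mrps5 in 0. Fitted with these 2 groups alone, 41 of the 74 were called, and DESeq2 called 31. The shares of all genes called in these other fits were not counted. Summed leukocyte markers were at 10.1, 29.1 and 341 CPM in the 3 old WT fed livers and at 10.6 to 30.9 CPM in the young ones, and their part was not tested.

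In Het fed males no gene was called for age, nor was any of the 17406 genes tested (0.0% called). One of the 74 had an unadjusted p under 0.05, DESeq2 called none, and the median difference was -0.02. The smallest adjusted p was 0.501, for mrps28. The old and young groups overlapped for all of the 74, where 2.33% of all genes were wholly higher and 2.72% wholly lower in old fish. The old Het fed livers were at 13.5, 12.5, 17.9 and 23.4 CPM of mrps21 and the young ones at 18.8, 11.6, 14.8 and 10.9 CPM. The difference between genotypes in the age effect was tested directly and called for none of the 74 (0.276% of all genes called). Its median was -0.52 with 69 of 74 genes negative, 30 genes had an unadjusted p under 0.05, and the smallest adjusted p was 0.0683, for mrps31. How many of all genes were negative or had such a p was not counted. DESeq2 called 3, and edgeR called 11 when old Het fed fish 14 was left out.

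Fish 14 differed from the other 3 old Het fed males across nearly all the genes, being above the group mean for 71 of 74. The mean log2 CPM of the 74 genes was 3.85 in it and 3.32 to 3.45 in the other 3. Several other fish also lay above or below their group mean for most of the genes. Young Het fed male fish 55 was above its group mean for 1 of 74 genes and old WT fed fish 4 for 3 of 74. In muscle, old Het female fish 21 was above it for 73 of 74 and young Het male fish 41 for 8 of 74. In liver fish 21 was above for 59 of 74. These genes share libraries, and the counts describe single fish. The same count over all genes was not made, and a shift of the whole library was not tested.

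In fasted males 1 gene was lower with age and none higher, where 14.6% of all genes were called, 5.66% lower and 8.9% higher. This was mrps30, at -0.42 ± 0.14 (SE; edgeR adjusted p = 0.0318). It had 7.66 to 13.4 CPM with a median of 9.79 CPM in 6 old and 10.7 to 16.7 CPM with a median of 14.3 CPM in 7 young fasted males. The ranges overlapped, and the call held in 6 of 13 fits that left out 1 fish. No gene was called without old Het fish 25 or 26, young WT fish 31 or young Het fish 38, 39 or 40, and 3 without old WT fish 20. In fasted females 1 gene was higher and 2 lower, where 5.95% of all genes were called, 2.91% higher and 3.04% lower. The gene mrps36 was at 6.94 to 9.08 CPM in 7 old and 5.95 to 7.16 CPM in 7 young females (0.34 ± 0.10, SE; adjusted p = 0.0337). The small subunit genes mrps18c and mrps16 were at 14.8 to 19.6 against 18.8 to 30.4 CPM and at 11.2 to 17.0 against 14.0 to 20.6 CPM, with differences of -0.41 ± 0.11 (adjusted p = 0.0303) and -0.39 ± 0.11 (adjusted p = 0.0306). The ranges of all 3 overlapped at their ends. No gene was called without old WT female fish 17 or young WT female fish 28 or 29, 1 without old WT fish 15 or young Het fish 36, and 5 without young Het fish 34.

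**Figure D4:**
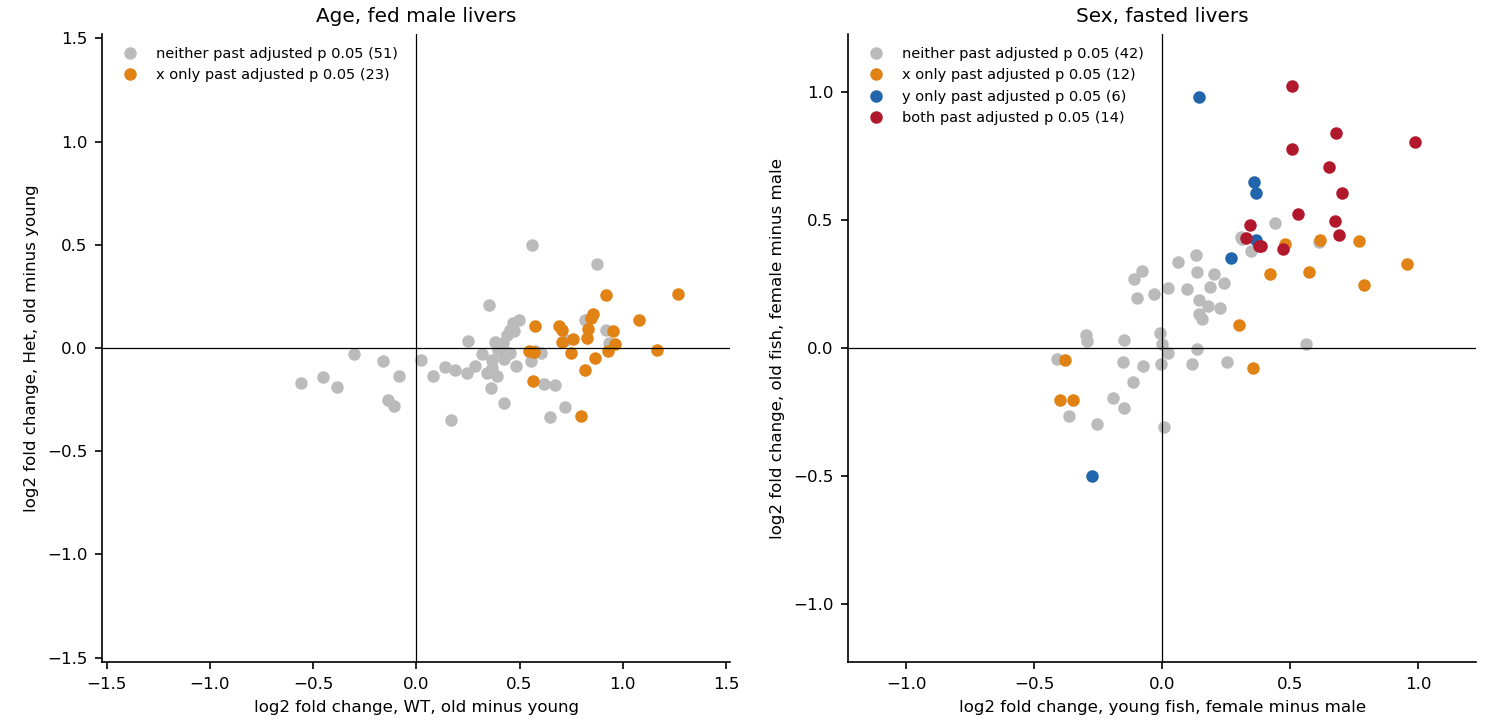
Log2 fold changes of the 74 genes. Left, age in fed male livers, WT (x axis) against Het (y axis); right, sex in fasted livers, young (x axis) against old (y axis); colours mark which of the 2 comparisons passed an adjusted p of 0.05. On the left 23 genes passed in WT alone, and on the right 14 passed at both ages.

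Genotype was compared in fed males of each age and over the fasted livers. In young fed males none of the 74 genes was called, where 5.8% of all genes were, 2.78% higher and 3.02% lower (6 of the 74 had an unadjusted p under 0.05, and DESeq2 called 1). In old fed males 8 were lower in Het and none higher, where 7.33% of all genes were called, 3.88% lower and 3.45% higher. Those named by size were mrps26, mrpl42 and mrpl57, all mitochondrion-specific; the others were mrps12, mrpl15, mrpl21, mrpl48 and mrps31. The gene mrps26 was at 5.91, 6.38, 7.97 and 9.76 CPM in Het and 13.2, 19.0 and 16.8 CPM in WT, a difference of -1.12 ± 0.25 (SE; edgeR adjusted p = 0.00677). The gene mrpl42 was at 2.36, 2.73, 2.84 and 4.31 CPM in Het and 5.13, 6.20 and 5.93 CPM in WT, a difference of -0.91 ± 0.26 (adjusted p = 0.029).

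For mrpl57 the Het fish had 2.88, 3.34, 4.38 and 5.22 CPM and the WT fish 7.64, 7.53 and 6.76 CPM, a difference of -0.88 ± 0.25 (SE; edgeR adjusted p = 0.0297). All Het fish lay below all WT fish for these 3 and for 13 other genes, and none of the 74 was wholly higher in Het. Among all genes 11.1% were wholly lower and 10.7% wholly higher. In young fed males, with no gene called, 13 of the 74 were wholly higher and 1 wholly lower in Het, where 14.8% and 11.8% of all genes were. The WT livers are the same 3 old fed livers that were high in the age comparison. The count of 8 became 0 without WT fish 5, 4 without WT fish 6, 4, 3 and 4 without Het fish 11, 12 and 13, and 30 without Het fish 14. Of 7 such fits the call of mrps26 held in 6, that of mrpl57 in 3 and that of mrpl42 in 2. Calls among all genes were not counted in these fits. Summed leukocyte markers were 12.8 to 321 CPM in Het and 10.1 to 341 CPM in WT livers, and hepatocyte markers 85620 to 119400 CPM against 53790 to 104200 CPM. Their part was not tested.

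Over the fasted livers of both sexes and ages none of the 74 differed between genotypes, where 0.132% of all genes were called, 0.046% higher and 0.0862% lower (7 of the 74 had an unadjusted p under 0.05, and DESeq2 called none). The smallest p was that of mrpl33, at 0.26 ± 0.09 (SE; edgeR adjusted p = 0.317).

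Sex could be compared only in fasted fish. In young livers 23 of the 74 genes were higher and 3 lower in females, where 26.4% of all genes were called, 13.9% higher and 12.5% lower. In old livers 19 were higher and 1 lower, where 32.6% were called, 14.3% higher and 18.3% lower. The medians of the 74 were 0.20 and 0.25. The ages share no fish, and 14 of the 74 genes were higher in females at both, which is 60.9% of the young and 73.7% of the old list. Among all 17406 genes tested 1521, or 8.74%, were higher at both ages. This 8.74% is a share of all genes tested, to be read beside 14 of the 74 and not beside the list shares. Shares of the all-gene lists were not counted. None of the 74 was called in opposite directions, as 0.103% of all genes were.

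Among young fish mrpl54 had the largest difference, with a lowest, median and highest value of 5.49, 7.75 and 15.8 CPM in 7 females and 3.09, 4.88 and 6.14 CPM in 7 males (0.99 ± 0.21, SE; edgeR adjusted p = 0.000769). The gene mrpl53 followed with 1.77, 2.30 and 3.33 CPM against 0.84, 1.16 and 1.76 CPM (0.96 ± 0.19; adjusted p = 0.000301). The gene mrpl22, whose bacterial counterpart lines the tunnel for the new peptide, had 3.22, 5.27 and 7.66 CPM against 2.06, 3.69 and 3.99 CPM (0.79 ± 0.19; adjusted p = 0.00249). Of these 3, mrpl53 had all females above all males. The 3 lower genes were mrpl18, mrpl39 and mrpl45, the last for a protein that in human mitochondria tethers the ribosome to the inner membrane. The gene mrpl18 was at 5.72 to 7.47 CPM in females and 7.63 to 11.0 CPM in males (-0.40 ± 0.10; adjusted p = 0.00384), and mrpl45 at 15.9 to 20.6 and 21.1 to 25.9 CPM (-0.35 ± 0.11; adjusted p = 0.0128). Both separated the sexes, while mrpl39 overlapped at 4.33 to 9.32 and 7.92 to 10.2 CPM (-0.38 ± 0.14; adjusted p = 0.0441).

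In old fish mrps30 was at 15.2, 21.2 and 30.2 CPM in 7 females (lowest, median, highest) and 7.66, 9.79 and 13.4 CPM in 6 males, a difference of 1.02 ± 0.14 (SE; edgeR adjusted p = 9.58e-07). The large subunit gene mrpl32 was at 8.48, 10.6 and 12.6 CPM against 5.25, 5.48 and 7.09 CPM (0.84 ± 0.12; adjusted p = 1.38e-06). Every female lay above every male for both, and at the young age the same held for mrpl32, at 8.55 to 13.6 against 5.33 to 7.48 CPM. The gene mrpl40 had 5.07, 13.1 and 19.7 CPM against 5.26, 6.54 and 7.45 CPM (0.98 ± 0.23; adjusted p = 0.00147), with overlap. The lower gene was mrpl2, for a protein near the peptidyl transferase centre, at 9.50 to 19.1 CPM in females and 10.5 to 24.0 CPM in males (-0.50 ± 0.18; adjusted p = 0.0299). Without fish 18, 30 of the 74 genes were called in old livers, and 12 were called when the old groups were fitted alone. How many of all genes these fits called was not counted.

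The livers of the sexes differed widely in other genes. One gene took 7.94 to 22.8% of the counts of a female liver, while the most abundant gene of a fasted male liver took 3.80 to 9.08%. The hepatocyte markers summed to 25020 to 49320 CPM in females and 47890 to 112400 CPM in fasted males. Exocrine pancreas markers summed to 109 to 3091 CPM in females and 46.8 to 2380 CPM in fasted males. Of the 77 cytosolic ribosomal protein genes 77 were higher in young and 76 in old females, with medians of 1.17 and 1.09. Of 83 oxidative phosphorylation genes 15 were higher and 4 lower in young and 22 and 1 in old females. Their part in the sex differences of the 74 genes was not tested.

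In muscle few of the genes passed the test. None did for age in males, where 10.1% of all genes were called, 5.9% higher and 4.24% lower (9 of the 74 had an unadjusted p under 0.05, and DESeq2 called 1); without old WT fish 20 the count was 2, and without young Het fish 39 it was 1. The gene mrpl20 had the smallest p, at 12.6 to 16.4 CPM in 6 old and 7.03 to 13.0 CPM in 7 young males (0.40 ± 0.13, SE; edgeR adjusted p = 0.0518). None did for age in females, where 0.311% of all genes were called (8 with an unadjusted p under 0.05, and DESeq2 called none), or for genotype, where 0.0794% were called (1 with an unadjusted p under 0.05, and DESeq2 called none). Skeletal muscle markers (8 of 14 found) summed to 113100 to 215500 CPM in old and 201200 to 298700 CPM in young muscle. Leukocyte markers were at 18.2 to 196 CPM in old and 14.2 to 30.9 CPM in young muscle, and hepatocyte markers at 0.413 to 1786 and 0.390 to 16.3 CPM. Their part was not tested. Of the 13 mitochondrially encoded protein genes in the muscle table, none was called in any of the 4 muscle comparisons, sex included.

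Between the sexes the large subunit gene mrpl51 was higher in females, where 3.2% of all genes were called, 1.6% higher. Its lowest, median and highest values were 5.68, 6.93 and 10.7 CPM in 14 females and 3.73, 5.24 and 8.63 CPM in 13 males, a difference of 0.45 ± 0.12 (SE; edgeR adjusted p = 0.0455). The ranges overlapped, and the call held in 7 of 27 fits that left out 1 fish. The gene mrps31 had 8.34, 12.3 and 17.3 CPM against 4.85, 8.83 and 12.6 CPM (0.49 ± 0.14; adjusted p = 0.0522). In all, 29 of the 74 had an unadjusted p under 0.05, a count not made over all genes, and the median was 0.18. The count of calls moved in 25 of the 27 fits that left out 1 fish. It ran from 0 without fish 18, among others, to 9 without old WT male fish 20. Skeletal muscle markers summed to 113100 to 298700 CPM in male and 136400 to 266700 CPM in female muscle. Hepatocyte markers were at 0.639 to 1786 CPM in male and 0.390 to 85.8 CPM in female muscle, and leukocyte markers at 18.3 to 196 and 14.2 to 53.8 CPM. Their part was not tested.

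The last comparison set muscle against liver in the 27 fasted fish with both tissues. Liver and muscle libraries were made with different kits and sequenced on different instruments, so tissue and library method cannot be told apart. Levels here are CPM scaled over both tissues together and differ from those given above for 1 tissue. Of the 74 genes 63 were higher and 5 lower in muscle, where 86.0% of all genes were called, 42.0% higher and 44.0% lower. The median difference was 0.91 on the log2 scale. The higher genes were 40 of the large and 23 of the small subunit. In 20 genes every muscle lay above every liver, where 15.1% of all genes did so, and in 1, mrpl33, every muscle lay below, where 13.5% did. Before scaling, the 74 genes took a median of 0.0998% of the counts over all 41 livers, fed ones included. In the 27 muscles the median was 0.113%. TMM takes most genes as unchanged, while 86.0% were called here. A scaling without this assumption was not tested.

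The largest difference was that of mrpl52, a mitochondrion-specific large subunit gene. Its lowest, median and highest values were 2.06, 3.29 and 4.40 CPM in liver and 16.3, 26.2 and 39.0 CPM in muscle (3.07 ± 0.08, SE; edgeR adjusted p = 4.08e-33). The gene mrps24 was at 0.80, 1.83 and 3.55 CPM against 5.77, 8.38 and 11.7 CPM (2.25 ± 0.10; adjusted p = 5.58e-24), and mrpl49 at 2.79, 5.02 and 8.02 CPM against 16.5, 24.4 and 34.3 CPM (2.22 ± 0.09; adjusted p = 5e-25). No muscle overlapped a liver for these 3. The gene mrpl1, for the protein of the stalk beside the exit site of tRNAs in bacteria, differed by 2.04 ± 0.08 (adjusted p = 3.01e-27), mrps36 by 2.00 ± 0.07 (adjusted p = 4.78e-29) and mrpl12 by 1.36 ± 0.08 (adjusted p = 1.29e-20). The gene mrps12 differed by 0.40 ± 0.07 (adjusted p = 1.92e-06).

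The genes lower in muscle numbered 5. The gene mrpl33 was at 8.24, 10.6 and 16.4 CPM in liver and 3.33, 5.45 and 7.55 CPM in muscle (-1.06 ± 0.07, SE; edgeR adjusted p = 1.43e-17). Its span overlaps that of rbks in the reference annotation. The gene mrps25 had 2.47, 6.35 and 10.5 CPM against 1.19, 4.30 and 7.76 CPM (-0.52 ± 0.14; adjusted p = 0.000921), and mrps11 had 12.4, 32.5 and 53.5 CPM against 18.2, 23.7 and 31.1 CPM (-0.46 ± 0.07; adjusted p = 1.55e-07). Both overlapped between tissues. The gene mrpl55 was lower by 0.33 on the log2 scale (SE 0.0932; adjusted p = 0.00129), and mrps27 by 0.29 (SE 0.0629; adjusted p = 5.59e-05). Without fish 18 the call of mrpl55 ended (adjusted p = 0.0756).

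**Figure D5:**
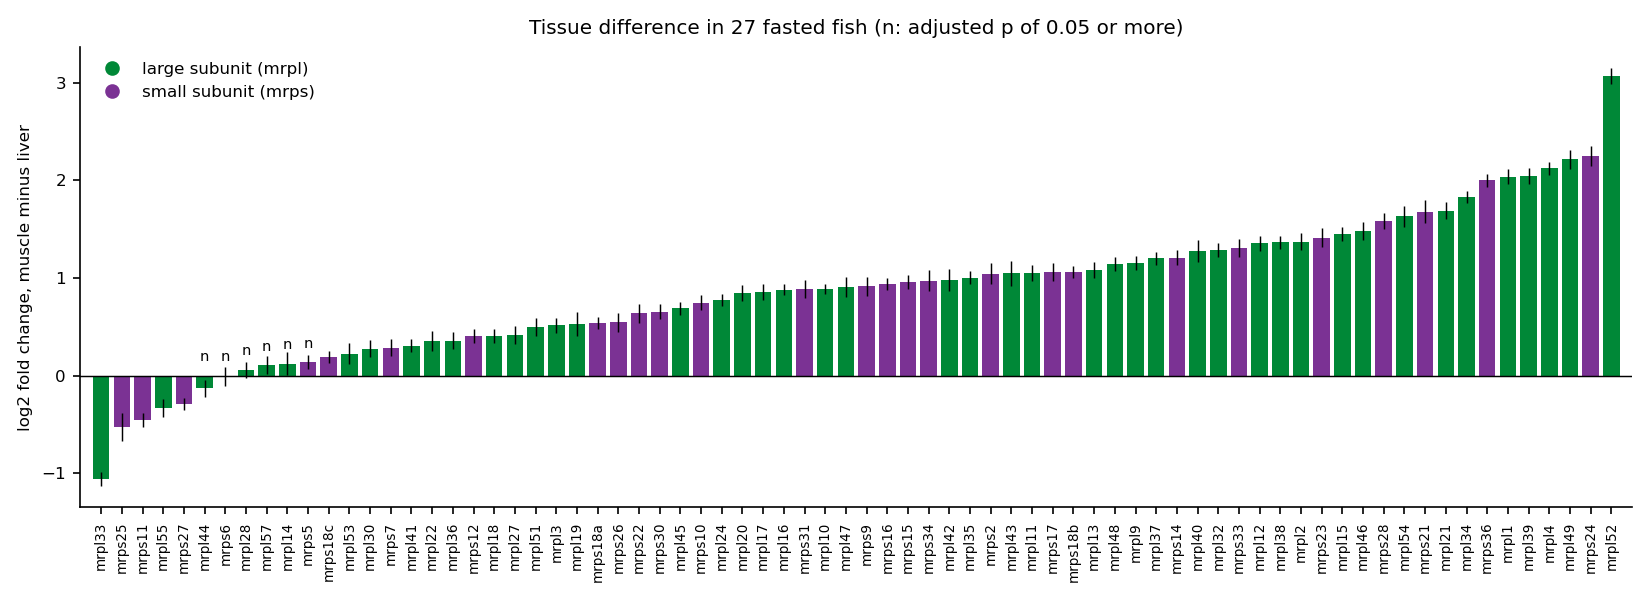
Log2 fold change, muscle minus liver (y axis), of each of the 74 genes (x axis, ordered by value) in 27 fasted fish; bars start at 0, whiskers are SE, green large and purple small subunit genes, and n marks an adjusted p of 0.05 or more. The values run from -1.06 for mrpl33 to 3.07 for mrpl52.

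The other lists were counted between the tissues against the 42.0% of all genes called higher and 44.0% called lower in muscle. Of 83 nuclear oxidative phosphorylation genes 76 were higher and 4 lower in muscle, with a median of 1.67, while of 77 cytosolic ribosomal protein genes 1 was higher and 70 lower, with a median of -0.69. Translation factors had 12 higher and 2 lower of 17, tRNA charging genes 10 and 6 of 19, assembly factors 8 and 12 of 22, DNA upkeep and transcription genes 5 and 4 of 11, and regulators 6 and 2 of 12. The 5 ribosomal proteins with other names were all higher in muscle, from 0.18 for dap3 to 1.21 for ptcd3 (log2; edgeR adjusted p = 0.019 and 1.88e-19).

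The tissue difference changed with age for 3 genes, all larger in old fish, where 4.55% of all genes were called, 2.6% higher; with fish as a block the count was 5. The large subunit gene mrpl30 had median levels of 12.2 CPM in old and 14.3 CPM in young livers and 16.7 CPM in old and 14.6 CPM in young muscles, with a change of 0.65 ± 0.16 (SE; edgeR adjusted p = 0.0164). The gene mrpl34 had 3.76 and 4.51 CPM in liver and 16.0 and 14.3 CPM in muscle (0.46 ± 0.12; adjusted p = 0.0229). The gene mrps18c had 14.5 and 17.3 CPM in liver and 18.6 and 18.0 CPM in muscle (0.42 ± 0.13; adjusted p = 0.0413). All ranges of old and young fish overlapped within a tissue. The count was 1 without fish 25, 29, 31, 33 or 39, 5 without fish 16 or 38 and 6 without fish 34.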

How the data were processed

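Liver libraries were made with KAPA mRNA HyperPrep and muscle libraries with KAPA Stranded mRNA-Seq, and both were read single-end on different NextSeq models, per the labels' protocols. Trim Galore 0.6.4, cutadapt 3.4, FastQC 0.11.8 and STAR 2.7.6a are named in the submitters' processing notes. The deposited values are raw read counts per gene, with no normalization by the authors. The genome build, annotation and strand setting of the counting are not given in the sources used here.

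From these counts, genes were kept with edgeR's filterByExpr (minimum count 10, minimum total 15) and scaled by TMM. The quasi-likelihood test of edgeR 4.0.16 in R 4.3.3 was run on all libraries of a tissue at once, each group having its own mean. The tissue fit held 54 libraries of 27 fish and did not account for which liver and muscle came from the same fish. Adjusted p-values are Benjamini-Hochberg over all genes tested, 17406 in liver, 16380 in muscle and 18485 in the tissue fit. Fold changes are log2, with SE as the fold change over the root of F. Log2 CPM values carry a prior count of 2. Every library is 1 tissue of 1 fish, so the spread is that between fish, and with 3 or 4 fish per group the precision is limited. The fits were also run on simulated counts, for 1 comparison each. These had no shift of whole libraries, so they do not bear on calls that rest on single fish.

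In each comparison the genes to name were the 3 called genes with the largest rise and fall. Where fewer than 3 were called, the 2 with the smallest p were taken. The fixed genes mrpl1, mrpl12, mrpl33, mrpl55, mrps5, mrps12 and mrps36 were also taken. Some genes chosen in this way are not named in every comparison. Genes named as the content of a counted set, or as the ends of a range, were chosen after their values were seen. The genes, lists and tests were chosen with earlier results of these data known. Symbols were looked up in RefSeq's gene annotation of NfurGRZ-RIMD1, which served only names and neighbours; 72 of the 74 were found. It also names 2 unnamed identifiers as mrps35 and mrpl23, which the name rule leaves out. The design text states that tissues came from the same fish, and liver and muscle deviations of a fish correlated at a median r of 0.134 over 27 fish (genes share libraries). Alternatives were RLE scaling, DESeq2 1.42.0, no filter, the compared groups alone, each fish left out, and fish as a block. Calls under the alternatives, signs and unadjusted p-values were counted for the 74 genes only, with no share over all genes. Comparisons of the age effect and of the old-male fasting response between genotypes were added after the data were seen. The split of the assembly list into assembly factors and proteins of the ribosome was also made after the data were seen.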

Additional observations from a re-analysis of the deposited data

Results flagged for a closer look

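Gaps within the 8 groups of 4 fish were tested for only some of the genes named in the comparisons. All 8 groups are Het, so no WT fish could be marked. This gave 120 tests in all, each within 1 group, and chance alone would mark about 1 in 20 tests. The other named genes were not tested in this way. In 5 of the tests 1 fish lay apart from the other 3. Old Het fed male fish 14 had 12.2 CPM of mrpl22 in liver, where the others had 5.71 to 6.78 CPM, and 9.21 CPM of mrpl52, where they had 5.26 to 5.87 CPM. Old Het fasted female fish 22 had 5.53 CPM of mrpl46 in liver, against 2.83 to 3.29 CPM. Old Het fasted female fish 24 had 3.07 CPM of mrpl52 in liver, against 4.55 to 4.79 CPM. In muscle, old Het female fish 21 had 50.1 CPM of mrpl10, against 34.4 to 36.3 CPM.

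For 5 genes a difference between 2 sets of fish was itself called. The fasting response of mrps30 was lower in old than in young males by a log2 value of -0.79. That of mrps26 was higher in Het than in WT males by 1.03. The tissue difference of mrpl30, mrpl34 and mrps18c was larger in old than in young fish by 0.65, 0.46 and 0.42.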

How the results depend on the processing

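The counts of genes called among the 74 are given here under the alternatives that moved them by over 1.5 times. With only the compared groups fitted, which leaves fewer fish to estimate the spread, they were 19 for fasting in young WT and 14 in old WT males, 5 for the fasting response by age, 41 for age in WT fed males, 0 for age in fasted males and in fasted females, 2 for genotype in young and 2 in old fed males, 12 for sex in old livers and 1 for the old-male fasting response by genotype. DESeq2 called 5 for the fasting response by age, 2 for that by genotype, 1 and 13 for genotype in young and old fed males, 1 for age in male muscle, 4 for sex in muscle, 3 for the age effect by genotype and 3 for the old-male fasting response by genotype. RLE scaling gave 2 for the fasting response by age and 2 for sex in muscle. The causes were not tested. Among the genes chosen to be named, no called direction reversed under RLE scaling, DESeq2, no filter, the compared groups alone or fish as a block. Calls were lost, however, counting each gene once per comparison. The compared groups alone lost 17 calls, no filter lost 5 and RLE scaling lost 1. Calls were gained for 9 under DESeq2, 2 under RLE scaling and 2 with the compared groups alone.

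Fish as a replicate block gave 68 for the tissue difference, as without it, and 5 for its change with age. The setting with only the compared groups was not run for the tissue fits. Against TMM, RLE scaling moved the median of all genes by at most 0.065 (log2).

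With each fish left out in turn the counts ran from 5 to 11, 12 to 19, 41 to 48 and 22 to 30 for fasting in young WT, young Het, old WT and old Het males and from 52 to 55 for their mean. They ran from 0 to 6 for the fasting response by age, 0 to 4 by genotype, and 0 to 8 by genotype in old males. They ran from 3 to 19 for age in WT fed males, 0 to 3 in fasted males, 0 to 5 in fasted females and 0 to 11 for the age effect by genotype. They ran from 0 to 30 for genotype in old fed males, 19 to 29 and 14 to 30 for sex in young and old livers, 0 to 2 for age in male muscle, 0 to 9 for sex in muscle, 67 to 71 for tissue and 1 to 6 for its change with age. Counts stayed at 0 for age in Het fed males and in female muscle and for genotype in young fed males, fasted livers and muscle.

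Groups of 3 or 4 fish limit all comparisons. No fed female and no fed muscle were measured, so the fast and sex could not be crossed.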
